A study of Mus musculus with 29 samples.

Results

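Transcript levels of 9 enzymes of the tricarboxylic acid cycle were followed in mouse hearts through heart failure (HF) and recovery. The genes were listed by name for their place in the cycle: Cs, Idh3a, Idh3b, Idh3g, Ogdh, Dlst, Suclg1, Fh1 and Mdh2. All 9 were among the 29955 genes of the table, and all 9 passed the filter on low values that left 12759 genes to be tested. The cycle runs in the mitochondrial matrix. It condenses acetyl groups with oxaloacetate to citrate, releases their carbon as carbon dioxide and passes the electrons to the respiratory chain, and the heart, which works almost entirely on oxidative metabolism, holds its enzymes at high levels.

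Male C57BL6 mice, 3 months old at the start, received L-NAME, which blocks nitric oxide synthase, at 0.3 mg/ml together with 1% NaCl for 5 weeks, and angiotensin II at 0.7 mg/kg/day from a pump placed after week 1. Hearts were taken during induction at weeks 3 and 5 (HF week 3, HF week 5) and, after the agents had ended, at weeks 7, 9, 11, 13 and 19 (Recovery). Control week 19 mice carried none of these agents. The values of 24 libraries were used, 5 each from Control week 19 and Recovery week 19, 3 each from HF week 5 and Recovery week 11, and 2 each from HF week 3 and from Recovery weeks 7, 9 and 13. Recovery week 9 has 3 labelled samples, and which of them its 2 columns hold is not known. The controls labelled as week 5 were not used here because their columns could not be matched to the labelled samples, so HF week 5 was set against older controls, and a difference of age cannot be told apart from the treatment. The labels name the whole heart or ventricle whereas the methods name the apex.

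Values are in FPKM, which relate fragments to gene length and library size, and can thus be compared between genes. Absolute depth is unknown, and the precision given is the spread between libraries. Relative depth could be read for 23 libraries, all but HF week 3 library 1, and ran from 0.728 to 1.40 of that of the first control library. Some libraries stood apart before any enzyme was considered. HF week 3 library 1 had 12816 genes above 0, against 16339 to 18091 in the others. Myl7, an atrial myosin light chain, was at 1805 and 5773 FPKM in the HF week 3 libraries and at 18390, 152 and 6.16 FPKM in those of HF week 5, against at most 1.12 FPKM in the controls. Among cardiomyocyte markers, Myh6 and Myl2 were listed at 0 in every control library, so the label of the tissue could not be checked by these genes, whereas the 10 cardiomyocyte genes together summed to 38970 to 47990 FPKM there. In bulk tissue, fewer cells of a type and less RNA per cell cannot be told apart.

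In the control hearts the enzymes were among the most abundant transcripts. Mdh2, malate dehydrogenase of the last step, ranked 97th of the tested genes with 1419 ± 38.1 FPKM (SD, n = 5). Idh3g followed with 476 ± 44.7, Idh3b with 377 ± 27.3, Cs with 338 ± 51.9, Suclg1 with 337 ± 14.4, Ogdh with 238.4 ± 34.99, Fh1 with 236 ± 14.5, Dlst with 184 ± 24.2 and Idh3a with 179.9 ± 8.62 FPKM. Idh3a, the lowest, still ranked 502nd. Neighbours in this order such as Cs and Suclg1, or Ogdh and Fh1, differed by less than their SD. The subunits of NAD-dependent isocitrate dehydrogenase did not lie at equal levels, since Idh3a, the catalytic subunit, was below every library's value of the regulatory subunits Idh3b and Idh3g.

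**Figure D1:**
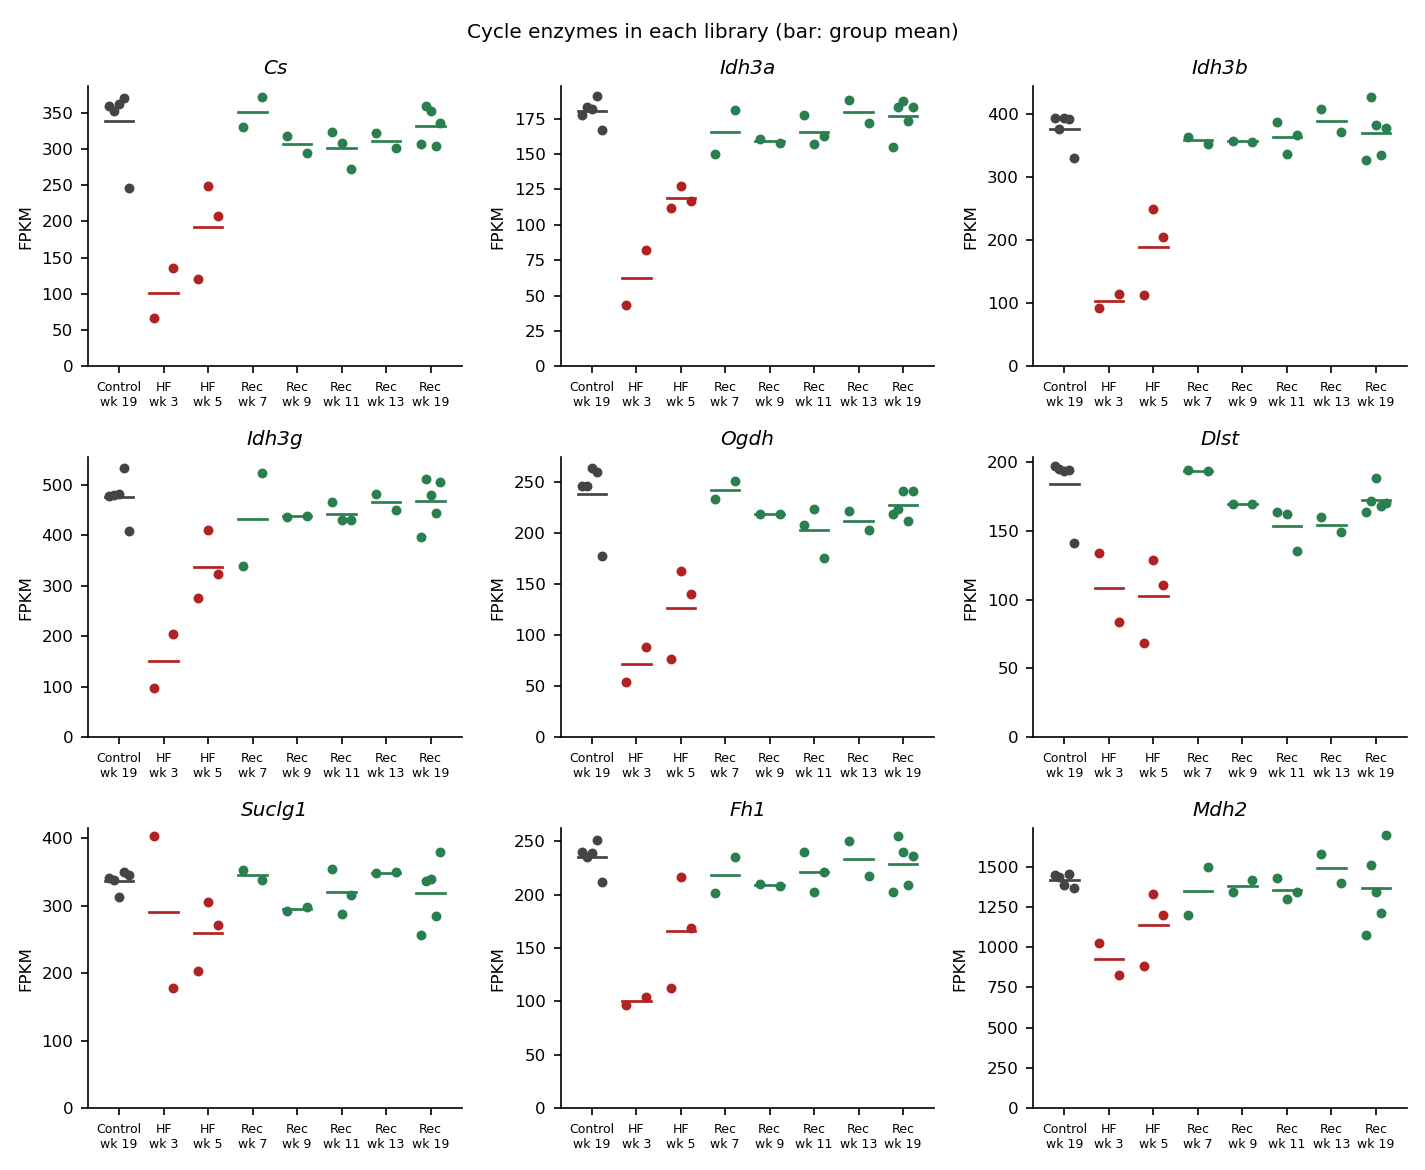
Level of each of the 9 enzymes in FPKM (vertical axis, from 0) in each of the 24 libraries by group (horizontal axis); each point is 1 library and the bar is the group mean. The HF libraries lie low for most of the enzymes, for example Idh3b between 92.5 and 250.1 FPKM, whereas the libraries of recovery lie in or near the range of the controls.

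At HF week 5, 6 of the 9 enzymes were lower than in Control week 19 at an adjusted p under 0.05 in limma, against 12.4% of all genes tested, and 0 were higher, against 11.6%. They were Idh3b, Ogdh, Dlst, Cs, Idh3a and Fh1, and they span the condensation step, both oxidative decarboxylations and the hydration of fumarate. The means of the 9 were at 50.2% (Idh3b) to 79.99% (Mdh2) of the control mean. The median log2 fold change was -0.60, against 0.04 over all genes tested. All 9 values were negative, and in 6 of 9 enzymes the HF week 5 libraries did not overlap with the controls, as did 14.7% of all genes in this direction.

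Cs encodes citrate synthase, which condenses acetyl-CoA with oxaloacetate at the entry of the cycle. It was at 359.7, 353, 361, 370.2 and 246 FPKM in the controls and at 120.4, 249 and 208 FPKM in HF week 5. The lowest control library lay just under the highest HF library, so the groups touched. Cs fell by 0.86 on the log2 scale (SE 0.21, adjusted p = 0.00666). In Recovery week 19 it was at 306, 359, 352, 304 and 335 FPKM, above every library of HF week 5.

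NAD-dependent isocitrate dehydrogenase, a rate-limiting step of the cycle, is built of the products of Idh3a, Idh3b and Idh3g. Idh3b was at 393, 376, 394, 392 and 330.1 FPKM in the controls and at 113, 250.1 and 204 FPKM in HF week 5, so that all 3 HF libraries were below all controls. It fell by 1.07 (SE 0.17, adjusted p = 0.000383), the largest fall of the 9 enzymes. Idh3a was at 177, 183, 182, 191 and 167 FPKM in the controls and at 112, 127 and 117 FPKM in HF week 5. Its HF libraries lay close together and apart from the controls, and it fell by 0.60 (SE 0.14, adjusted p = 0.00489).

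Idh3g was at 477, 480.5, 481, 533 and 408 FPKM in the controls and at 276, 410.1 and 324 FPKM in HF week 5. The highest HF library reached the lowest control, and the log2 fold change of -0.51 (SE 0.19) did not pass the test (adjusted p = 0.0543), although it did in 7 of 19 other settings. Idh3g is placed head to head with Ssr4, which encodes a subunit of the translocon-associated complex of the endoplasmic reticulum, and their starts are 126 bases apart on the X chromosome. The stretch between both starts is shown because one short sequence serves as upstream region for both genes (RefSeq, GRCm38.p6, chrX:73786898-73787022, minus strand, 5′ to 3′ toward Idh3g). Capitals mark the letters CCGGAAG, searched as the GABP motif.

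Ssr4 to Idh3g: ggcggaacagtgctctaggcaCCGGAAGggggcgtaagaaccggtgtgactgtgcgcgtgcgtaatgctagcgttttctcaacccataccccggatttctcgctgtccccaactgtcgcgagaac

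Ssr4 was at 106, 117, 98.5, 93.4 and 129 FPKM in the controls and at 143, 102 and 113 FPKM in HF week 5. Its groups overlapped, and its log2 fold change was 0.13 (95% confidence interval -0.27 to 0.52, adjusted p = 0.666).

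The 2-oxoglutarate dehydrogenase complex is made of Ogdh, which decarboxylates 2-oxoglutarate, Dlst, which transfers the succinyl group to coenzyme A, and Dld, which reoxidizes the lipoyl arm. Ogdh was at 246, 246, 264, 259 and 177 FPKM in the controls and at 76.4, 162 and 139.8 FPKM in HF week 5, with no overlap. It fell by 0.97 (SE 0.20, adjusted p = 0.0018). Dlst was at 197, 195, 193, 194 and 141 FPKM in the controls and at 68.4, 129 and 110.4 FPKM in HF week 5, again without overlap, and it fell by 0.88 (SE 0.17, adjusted p = 0.00149). Dld, which was not among the 9 genes, fell by 0.87 (adjusted p = 0.000286). The log2 ratio of Ogdh to Dlst differed by -0.09 between HF week 5 and the controls (exact two-sided permutation test, p = 0.357), and that of Ogdh to Dld by -0.10 (p = 0.714 in the same exact test).

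Suclg1 encodes the alpha subunit of succinyl-CoA ligase, which is shared by the forms that make GTP and ATP. It was at 340.2, 338, 312, 349 and 345 FPKM in the controls and at 203, 306 and 271 FPKM in HF week 5. The groups did not overlap, but the log2 fold change of -0.39 (SE 0.19) did not pass the test (adjusted p = 0.141). Fh1, fumarate hydratase, was at 240.1, 236, 239, 251 and 212 FPKM in the controls and at 113, 217 and 169 FPKM in HF week 5. The highest HF library lay inside the control range, and Fh1 fell by 0.55 (SE 0.15, adjusted p = 0.0118). This call was lost when the fit held only the groups compared (adjusted p = 0.0565). Mdh2 was at 1369 to 1454 FPKM in the controls and at 881, 1327 and 1197 FPKM in HF week 5, and its log2 fold change of -0.34 (SE 0.15) did not pass the test (adjusted p = 0.111).

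**Figure D2:**
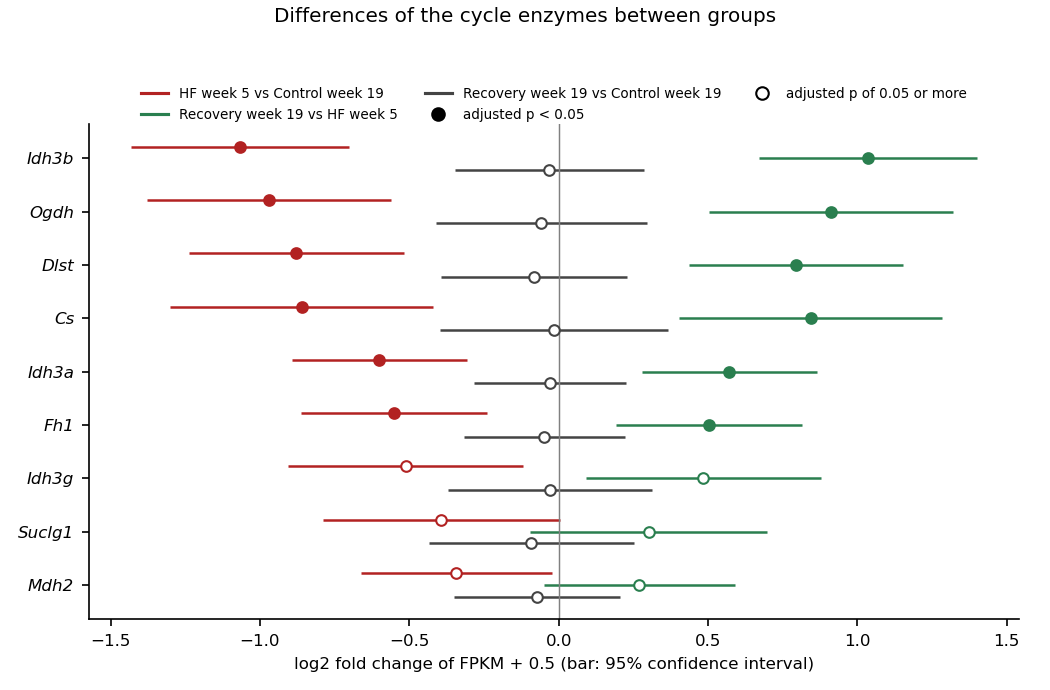
Log2 fold change of FPKM + 0.5 (horizontal axis) for each enzyme in 3 comparisons, with bars for the 95% confidence interval; filled points have an adjusted p under 0.05. The enzymes are ordered by their difference at HF week 5, from Idh3b at -1.07 to Mdh2 at -0.34, and all intervals of Recovery week 19 against Control week 19 include 0.

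HF week 5 library 1 was the lowest of its group for each of the 9 enzymes, with a median of 47.8% of the control mean, and it also held the highest Myl7. Library 2, with Myl7 at 152 FPKM, had a median of 73.7%, with Idh3b lowest at 66.3% and Mdh2 highest at 93.5%. Library 3, with Myl7 at 6.16 FPKM, had a median of 64.9%, with Idh3b lowest at 54.2% and Mdh2 highest at 84.3%. Idh3b was thus the lowest of the 9 relative to control in each of the 3 libraries. Without library 1, 4 enzymes were called lower (Idh3a, Idh3b, Ogdh and Dlst). The share of all genes called is not given for the fits without this library. Cs then had a log2 fold change of -0.56 (adjusted p = 0.0809) and Fh1 one of -0.30 (adjusted p = 0.128). Ogdh was at -0.65 (adjusted p = 0.0197), Suclg1 at -0.23 (adjusted p = 0.532) and Mdh2 at -0.17 (adjusted p = 0.531). When the HF week 3 libraries were left out of the fit as well, 5 were called, the fifth being Cs with an adjusted p of 0.0114. The part of atrial tissue in the values of library 1 was not tested.

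Markers of other cell types moved in the same comparison, in which 11.6% of all genes tested were higher. Of 8 fibroblast genes 6 were higher in HF week 5, with their summed level at 253 to 360.3 FPKM in the controls and 357 to 707 FPKM in HF week 5. Of 7 endothelial genes 4 were higher, with sums of 257 to 327 and 369 to 475 FPKM, and of 5 genes of smooth muscle and pericytes 3 were higher, with sums of 94.4 to 120.4 and 157 to 241 FPKM. All 5 tested atrial genes were higher, with sums over the list of 92.9 to 352 and 2234 to 81740 FPKM. Nppa, a natriuretic peptide also known from the failing ventricle, was at 42000, 2100 and 2214 FPKM in HF week 5 and made up most of the lower sums. Myl7, Myl4 and Sln were at 6.16, 8.05 and 1.29 FPKM in library 3. No marker of the fibroblast list was at 0 in all libraries of either group. Of 4 tested adipocyte genes Adipoq was higher. No direction is read for Ucp1, which was listed at 0 in every control and at 13.03, 1.68 and 0.292 FPKM in HF week 5. The sums over the list were 1448 to 3240 and 2141 to 3213 FPKM, mostly of Fabp4 (1416 to 3202 and 2075 to 3176 FPKM). Of 3 tested genes of skeletal muscle 2 were higher (Acta1 and Tnnt3), with sums of 134 to 440.3 and 589 to 1321 FPKM. Acta1 made up most of these sums, with 129.3 to 436.4 and 578.3 to 1317 FPKM. In both groups Myh1 of this list was at most at 0.00931 FPKM and Myh4 was listed at 0. None of 7 macrophage and leukocyte genes and none of 3 red cell genes was called. Of the 10 cardiomyocyte genes Pln was lower (log2 fold change -0.87, adjusted p = 0.0157), against 12.4% of all genes tested. Pln was at 1418 to 1566 FPKM in the controls and spread from 395.2 to 1243 FPKM in HF week 5. Its fits with 1 library left out are not given. No direction is read for Myl2, which was likewise listed at 0 in the controls. The part of these cells in the lower enzyme levels was not tested.

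By Recovery week 19 the same 6 enzymes had risen from their HF week 5 levels, against 12.3% of all genes tested. This comparison and the previous one share the HF week 5 libraries, so that a low HF library enters both. The log2 fold changes were 1.04 for Idh3b (adjusted p = 0.000484), 0.91 for Ogdh (0.00276), 0.84 for Cs (0.00747), 0.79 for Dlst (0.0030), 0.57 for Idh3a (0.00682) and 0.50 for Fh1 (0.0192). The values of Idh3g (0.48, adjusted p = 0.0676), Suclg1 (0.30, adjusted p = 0.263) and Mdh2 (0.27, adjusted p = 0.212) did not pass. Idh3b was at 326, 428, 382, 336 and 377 FPKM in Recovery week 19, and Ogdh at 218, 224, 241, 212 and 240.4 FPKM. Both were above every library of HF week 5, as were Cs, Idh3a and Dlst, so that 5 of 9 enzymes did not overlap, against 14.1% of all genes. Without HF week 5 library 1, 4 enzymes were called higher (Idh3a, Idh3b, Ogdh and Dlst), with Ogdh at 0.59 and Dlst at 0.53. Cs then had 0.54 (adjusted p = 0.0838) and Fh1 0.25 (adjusted p = 0.196). Idh3g had 0.35 (adjusted p = 0.300), Suclg1 0.14 (adjusted p = 0.722) and Mdh2 0.098 (adjusted p = 0.731). Fh1 was not called either when the fit held only the groups compared (adjusted p = 0.108).

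Markers of other cells moved in this comparison as well. In Recovery week 19, 4 of 5 atrial genes, 3 of 8 fibroblast genes, 3 of 7 endothelial genes, 4 of 5 genes of smooth muscle and pericytes, Adipoq of the adipocytes and 2 of 3 genes of skeletal muscle were lower than in HF week 5. The sums were 177 to 754.5 FPKM for the atrial list, 312 to 458 FPKM for fibroblasts and 267 to 292 FPKM for endothelial cells. Median log2 fold changes were -5.625 (atrial), -0.48 (fibroblast), -0.31 (endothelial) and -0.97 (smooth muscle and pericytes), against -0.04 over all genes. The share of all genes called lower is not given for this comparison. Pln was higher (log2 fold change 0.81), as was Rgs5 of the pericytes (adjusted p = 0.0178 in limma). The part of these cells in the enzyme values was not tested.

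Recovery week 19 was then compared with controls of the same week. None of the 9 enzymes was called, and none had an unadjusted p under 0.05 in limma, against 0.0235% of all genes called, which is 3 genes. The group means were at 93.7% (Dlst) to 98.2% (Idh3g) of the control means. The widest interval was that of Cs, with a log2 fold change of -0.02 (95% confidence interval -0.40 to 0.37), and the narrowest that of Idh3a, with -0.03 (-0.28 to 0.22). Dlst had -0.08 (-0.40 to 0.23) and Ogdh -0.06 (-0.41 to 0.30), so that these libraries do not resolve smaller differences than the intervals span. Mdh2 spread more widely in Recovery week 19, from 1077 to 1696 FPKM, than in the controls.

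The earlier weeks of recovery hold 2 or 3 libraries each and were tested together, 9 libraries in all. At week 7 the enzymes were near the controls, with Cs at 329.8 and 371 FPKM, Idh3b at 364 and 352 FPKM, Ogdh at 233 and 251 FPKM and Dlst at 194 and 194 FPKM. Idh3g differed between both libraries of that week, with 339 and 524 FPKM. Against HF week 5, 6 enzymes were higher in Recovery weeks 7 to 13, against 11.2% of all genes tested, and these were again Cs, Idh3a, Idh3b, Ogdh, Dlst and Fh1. Without HF week 5 library 1, 3 were called (Idh3b, Ogdh and Dlst). Under quantile normalization Idh3a (adjusted p = 0.0529) and Fh1 (adjusted p = 0.0962) were not called, nor was Fh1 with only the groups compared (adjusted p = 0.0577). All 5 atrial genes, 4 of 7 endothelial genes, 4 of 5 genes of smooth muscle and pericytes, 2 of 8 fibroblast genes, Adipoq and 1 of 3 genes of skeletal muscle were lower than in HF week 5, with atrial sums of 364 to 2438 FPKM. The share of all genes called lower is not given for this comparison. Of 10 cardiomyocyte genes 2 were called higher, but no direction is read for Myh6, listed at 0 in HF week 5. The part of these cells in the enzyme values was not tested. Against Control week 19, which these libraries preceded by 6 to 12 weeks, none of the enzymes was called and none had an unadjusted p under 0.05 in limma, with 0.0705% of all genes called, which is 9 genes. The lowest log2 fold change was that of Dlst (-0.13, 95% confidence interval -0.41 to 0.15). Its mean was at 105% of the control mean at week 7, 83.5% at week 11 and 83.9% at week 13, and its lowest library, with 135 FPKM at week 11, lay just under the lowest control. Ogdh was at 84.9% at week 11 and 88.8% at week 13. The 10 most abundant genes held 27.9% to 37.4% of all FPKM in these libraries, against 14.6% to 18.8% in those of weeks 5 and 19. Myh6 was at 106000 to 316200 FPKM in these libraries and was listed at 0 in those of weeks 5 and 19, and the part of this difference in the enzyme values was not tested apart from the rescaling given among the alternatives.

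**Figure D3:**
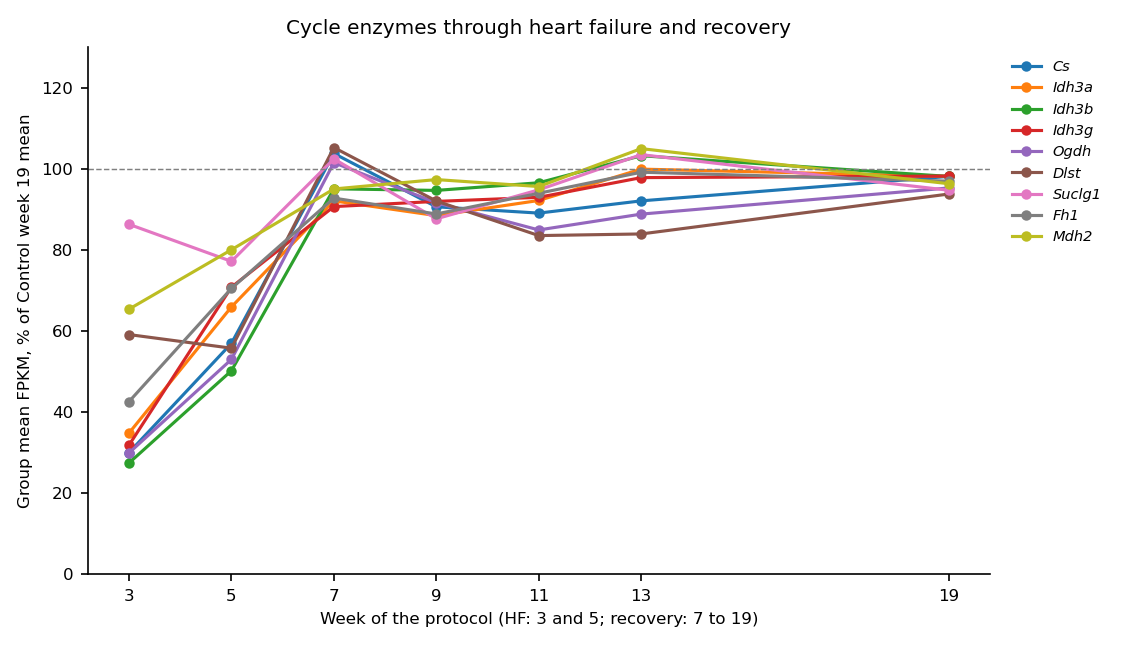
Group mean FPKM of each enzyme as a percentage of the Control week 19 mean (vertical axis) by week of the protocol (horizontal axis), for HF weeks 3 and 5 and Recovery weeks 7 to 19; each line is 1 enzyme and the dashed line marks 100%. From 50.2% to 79.99% at week 5, the means lie between 90.7% and 105% at week 7.

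HF week 3 had the lowest values of the series for most of the enzymes. Its 2 libraries correlated at r = 0.885 over all genes tested. The 10 most abundant genes held 19.8% and 37.5% of all FPKM in them, against 14.6% to 15.6% in the controls. Myh6 was at 37550 to 301800 FPKM there and was listed at 0 in the controls. The part of these differences in the enzyme values was not tested apart from the rescaling given among the alternatives. Against Control week 19, 8 of 9 were lower, against 27.6% of all genes tested, and the same 8 did not overlap with the controls, against 23.9% of all genes. Cs was at 67.1 and 135 FPKM, Idh3a at 43.3 and 81.8 FPKM, Idh3b at 92.5 and 114 FPKM, Idh3g at 97.8 and 205 FPKM and Ogdh at 53.9 and 88.6 FPKM. These 5 had log2 fold changes from -1.87 (Idh3b) to -1.59 (Idh3a). Dlst at 134 and 83.8 FPKM, Fh1 at 96.6 and 104 FPKM and Mdh2 at 1028 and 826 FPKM were lower as well. Suclg1 was at 403 FPKM in library 1, above every control, and at 178 FPKM in library 2, below every control.

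Of 5 tested atrial genes 4 were higher in HF week 3. Nppa was listed at 0 in both libraries, against 81.1 to 344.5 FPKM in the controls, and Bmp10 was also listed at 0 in both. A listed 0 can be a failed estimate in a table without counts, so no direction is read for these genes. Of 8 fibroblast genes 6 were higher, with sums of 739.7 to 746.8 FPKM, and of 7 endothelial genes 5 were higher and 1 lower, with sums of 408 to 516.5 FPKM. The median log2 fold change was 1.66 for the fibroblast list and 0.64 for the endothelial list, against -0.05 over all genes. The share of all genes called higher is not given for this comparison. Of 7 macrophage and leukocyte genes 1 was higher and 1 lower. The 3 tested genes of skeletal muscle were all higher (sums of 1013 to 2239 FPKM, mostly of Acta1 at 921.6 to 2218 FPKM). Of 5 genes of smooth muscle and pericytes 2 were higher (165 to 193 FPKM). Adipoq and Fabp4 of the adipocytes were called higher as well (2765 to 3065 FPKM for the list). Fabp4 made up most of that sum. Its 2728 to 3009 FPKM lay within the control range of 1416 to 3202 FPKM. No direction is read for Ucp1, which was listed at 0 in the controls. Of 10 cardiomyocyte genes 4 were lower (Actn2, Pln, Ryr2 and Tnnt2), against 27.6% of all genes tested. No direction is read for Myh6 and Myl2, both listed at 0 in the controls. The part of these cells in the values of HF week 3 was not tested.

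Library 1 of HF week 3 stood apart in the number of genes. With library 1 left out, the log2 fold change against the controls was -0.92 for Suclg1, -1.12 for Dlst and -0.78 for Mdh2. With library 2 left out it was 0.26 for Suclg1, -0.45 for Dlst and -0.46 for Mdh2. Each of these fits rests on 1 library of HF week 3 and assumes that it varied like those of the other groups. Against HF week 5, 6 enzymes were lower in HF week 3 (Cs, Idh3a, Idh3b, Idh3g, Ogdh and Fh1), against 13.1% of all genes, but none was called without HF week 3 library 1, and none when the fit held these groups only. In this comparison 4 of 8 fibroblast genes, 2 of 3 genes of skeletal muscle and 1 of 5 genes of smooth muscle and pericytes were higher, and Pln, Ryr2 and Tnnt2 of the 10 cardiomyocyte genes were lower. The share of all genes called higher is not given here. The part of these cells in the enzyme values was not tested.

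The balance between partner subunits and between paired enzymes was then examined. For 12 pairs of enzymes the log2 ratio was computed in each library and compared in HF week 5 against Control week 19 and in Recovery week 19 against HF week 5 by exact two-sided permutation tests. The smallest p that 3 against 5 libraries can give is 0.0357. It was reached in 9 of the 24 tests, for which the adjusted p was 0.0952, so that no ratio passed 0.05 after adjustment. With this smallest p, a ratio could pass only if most of the 24 tests had reached it. No conclusion is therefore drawn from the absence of calls. The log2 ratio of Idh3b to Idh3g was -0.33 ± 0.07 (SD, n = 5) in the controls, -0.89 ± 0.35 (SD, n = 3) in HF week 5 and -0.34 ± 0.07 (SD, n = 5) in Recovery week 19. The 3 libraries of HF week 5 lay below those of Control week 19 and Recovery week 19 in this ratio, and those of HF week 3 were at -0.08 and -0.84. That of Idh3a to Idh3g was -1.40 in the controls and -1.48 in HF week 5, with overlap.

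The ratio of Suclg1 to Suclg2, its partner in the GTP-forming ligase, was 2.36 ± 0.17 in the controls and 3.02 ± 0.25 in HF week 5 on the log2 scale. All 3 libraries of HF week 5 lay above all controls, as Suclg2 had 54.9 to 72.6 FPKM in the controls and 20.1 to 38.9 FPKM in HF week 5. The ratio of Mdh2 to Mdh1, the cytosolic enzyme of the malate-aspartate shuttle, was 0.37 ± 0.03 in the controls, 0.73 ± 0.04 in HF week 5 and 0.37 ± 0.10 in Recovery week 19. Its values in the 3 libraries of HF week 5, 0.69 to 0.76, lay close together although these libraries differed in the level of both genes.

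**Figure D4:**
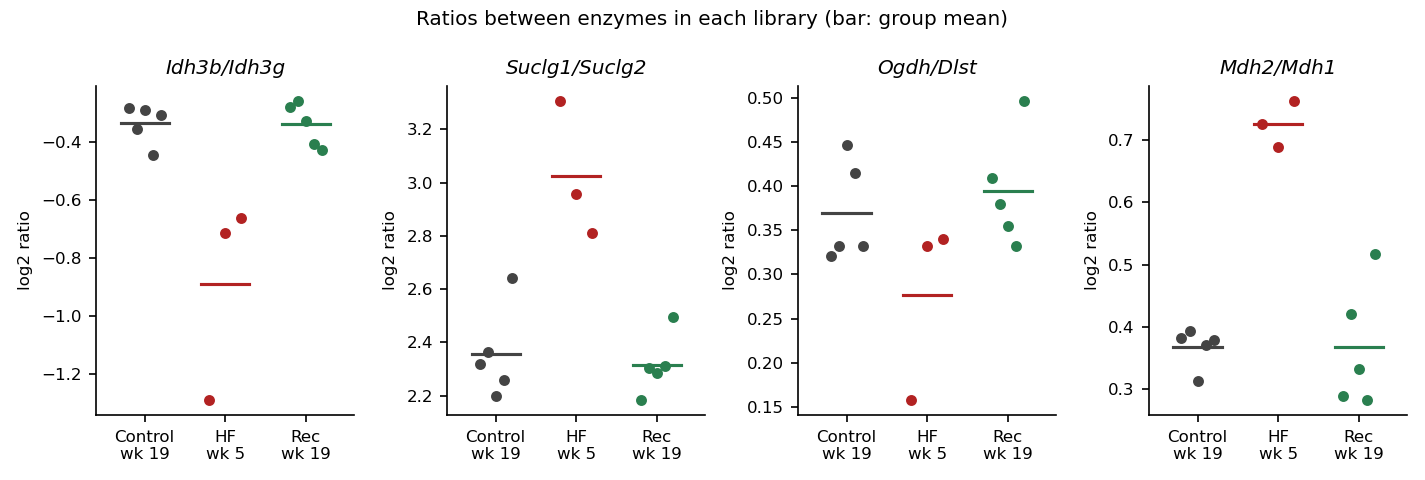
Log2 ratio of FPKM + 0.5 between enzymes (vertical axis, scaled for each panel) in each library of Control week 19, HF week 5 and Recovery week 19; each point is 1 library and the bar is the group mean. For Mdh2 to Mdh1 the 3 libraries of HF week 5 lie between 0.69 and 0.76 and the controls between 0.31 and 0.39.

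The other subunits of the cycle were described from a list of 8 genes. At HF week 5, 6 of them were lower than in the controls and 6 had risen again by Recovery week 19. Sdha, the flavoprotein of succinate dehydrogenase, fell by 1.14 (adjusted p = 2.07e-05). Suclg2 fell by 1.06, Sdhd by 0.92, Dld by 0.87, Sdhc by 0.78 and Sucla2 by 0.75. Without library 1 Sucla2 had -0.46 (adjusted p = 0.04997). Idh2, the NADP-dependent isocitrate dehydrogenase, was at 1783 to 1964 FPKM in the controls and at 813, 2076 and 1813 FPKM in HF week 5, so that only library 1 was low (log2 fold change -0.38, adjusted p = 0.195). Sdhb, the iron-sulphur subunit, had the same pattern with 719, 1255 and 1161 FPKM against 1154 to 1285 FPKM (-0.24, adjusted p = 0.353). Without library 1 their log2 fold changes were 0.03 and 0.00457, whereas Sdha still had -0.94.

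Of 11 genes of the pyruvate dehydrogenase complex and its regulators, which feed acetyl-CoA to the cycle, 8 were lower at HF week 5. The subunits Dlat, Pdhx, Pdha1 and Pdhb fell by 0.96, 0.72, 0.65 and 0.56. Without library 1 Pdhx had -0.46 (adjusted p = 0.00632), and Pdhb, with -0.36, was not called (adjusted p = 0.0648). Among the kinases that inhibit the complex, Pdk2 fell by 0.69 and Pdk1 by 0.63, neither of which was called without library 1 (-0.40 with an adjusted p of 0.230, and -0.56 with 0.0624). Pdk2 was at 146 to 224 FPKM in the controls and at 82.9, 163 and 139.8 FPKM in HF week 5. Pdk3 was higher (1.31, adjusted p = 0.0201) but low in level, with 0.521 to 0.978 FPKM in the controls and 7.96, 1.12 and 1.80 FPKM in HF week 5. Without library 1 its log2 fold change was 0.60 (adjusted p = 0.233). Of 10 enzymes that bring carbon into or out of the cycle 8 were lower, with Got2, mitochondrial aspartate aminotransferase, falling by 0.88 and Me3, a mitochondrial malic enzyme, by 0.85. Without library 1, 3 of these 10 were called, with Got2 at -0.57 (adjusted p = 0.0225).

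Outside the mitochondrion, 3 of 5 counterparts were lower, Got1 by 1.06, Mdh1 by 0.70 and Aco1 by 0.63. Acly, which splits citrate in the cytosol to acetyl-CoA, was higher (0.60, adjusted p = 0.0364), but control library 5, with 21.2 FPKM, lay within the HF range of 17.2 to 23.3 FPKM, and the call was lost without HF week 5 library 1 (adjusted p = 0.132). Among 7 carriers of the inner membrane, 3 were lower: Slc25a13 by 1.03, Slc25a11 by 0.92 and Slc25a12 by 0.83, which are the carriers of the malate-aspartate shuttle. Without library 1 they had -0.55 (adjusted p = 0.0204), -0.61 (adjusted p = 0.00769) and -0.79 (adjusted p = 0.000971). Slc25a1, which exports citrate, was at 5.56, 5.74, 4.74, 4.55 and 5.05 FPKM in the controls and at 12.6, 10.5 and 7.87 FPKM in HF week 5. It was higher without overlap (0.92, adjusted p = 0.0015), and remained so without library 1 (0.78, adjusted p = 0.0193).

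Other mitochondrial genes served as a comparator of mitochondrial content. Of 12 such genes 7 were lower at HF week 5, with a median log2 fold change of -0.48 over the 12 against 0.04 over all genes and -0.60 over the 9 enzymes. Vdac1, a channel of the outer membrane, fell by 0.95, whereas Vdac2 had -0.20 (adjusted p = 0.233) and Tomm20 -0.17 (adjusted p = 0.498). Without HF week 5 library 1, 4 of the 12 were called. Of 6 measured regulators of mitochondrial genes, 4 were lower. They were the coactivators Ppargc1a (by 0.93) and Ppargc1b (by 0.65) and the receptors Esrrg (by 0.74) and Esrra (by 0.71). Only Esrra and Esrrg were still called without library 1. Nrf1 and Gabpa had log2 fold changes of 0.19 (adjusted p = 0.503) and -0.18 (adjusted p = 0.724).

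**Figure D5:**
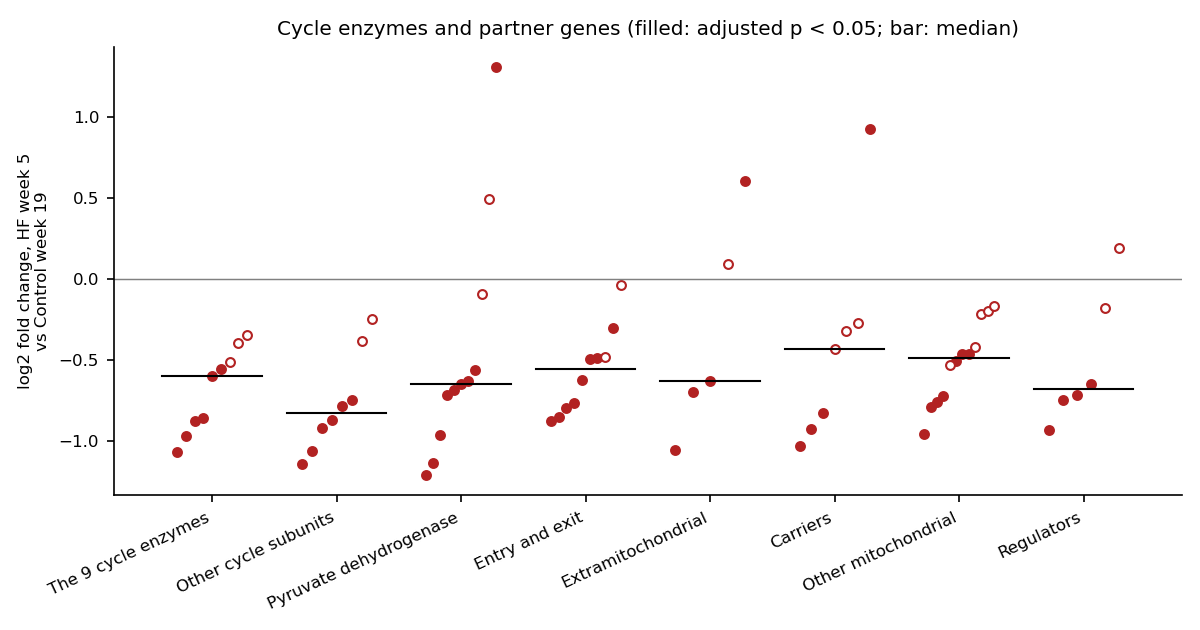
Log2 fold change at HF week 5 against Control week 19 (vertical axis) of the 9 enzymes and of 7 lists of partner genes (horizontal axis); each point is 1 gene, filled points have an adjusted p under 0.05 and the bar is the median of the list. Among the filled points above 0 are Pdk3 at 1.31, Slc25a1 at 0.92 and Acly at 0.60.

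The letters of motifs known from promoters of mitochondrial genes were searched on both strands in the 250 bases before each start of RefSeq (GRCm38.p6, another build than that of the deposited values). Of the 9 enzymes 8 were in that table and Idh3a was not. The ERR element TCAAGGTCA was in 0 of 8 and in 0.354% of the 8474 tested genes of that table (0.422% of all its genes), and its core AAGGTCA in 0 of 8 and in 3.53% of those tested (4.70% of all). The NRF1 core GCATGCGC was in Ogdh only (5.07% of tested and 2.56% of all genes) and CCGGAAG in Idh3g only (15.4% and 7.83%). Ogdh has several starts in that table, and the NRF1 core lay only before those at 6292558 and 6292579. The bases transcribed from these starts matched no reference transcript of Ogdh. GGGCGG, the Sp1 box, was in Cs, Dlst, Fh1, Mdh2 and Ogdh (64.6% and 35.4%) and TATAAA in 0 of 8 (8.12% and 14.3%). CCAAT was in 4 of 8, Cs, Fh1, Idh3b and Ogdh (39.9% and 37.5%), and in 5 of 7 other subunits of the cycle, among them Idh2 and Sdhb, which were not called at HF week 5. For the 4 enzymes 1 window around CCAAT, or ATTGG where it lies on the other strand, is shown with these letters in capitals so that their surroundings can be compared. They are read on the strand of the gene at chr10:128337656-128337692 (plus), chr1:175625685-175625721 (minus), chr2:130284507-130284543 (minus) and chr11:6291521-6291557 (plus).

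Cs: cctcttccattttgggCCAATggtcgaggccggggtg

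Fh1: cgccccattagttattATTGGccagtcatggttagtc

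Idh3b: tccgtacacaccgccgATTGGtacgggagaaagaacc

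Ogdh: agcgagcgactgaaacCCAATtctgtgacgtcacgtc

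A match of letters is a description and not a site.

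Over the 24 libraries each enzyme was compared with the mean of the other 8 on the log2 scale. Pearson's r was 0.98 for Fh1 and Idh3b, 0.95 for Ogdh, 0.94 for Cs, 0.88 for Idh3a, 0.87 for Mdh2 and Idh3g, 0.81 for Dlst and 0.51 for Suclg1. Over the 19 libraries outside HF it was lower for all but Suclg1, with 0.87 for Fh1 and 0.46 for Dlst. The libraries share their group and depth, so these are descriptions. The genes most like the mean of the 9 enzymes were Atp5a1, the alpha subunit of ATP synthase (r = 0.99), then Rxrg, Trap1, Slc25a11, D10Jhu81e, Ldhb, Pdhb, Sod2, Auh and Pmpcb, with r from 0.98. Atp5a1 was at a mean of 1961 FPKM in the controls and 1328 FPKM in HF week 5. The genes with the most opposite pattern were Bmx (r = -0.96), Foxp1, Krt18, Npr1 and Itgb3. Outside HF, r was 0.81 to 0.91 for the first 10 and -0.52 to -0.39 for the last 5.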

How the data were processed

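Polyadenylated RNA of heart tissue was sequenced in pairs of reads. The FPKM values deposited by the authors came from alignment with TopHat to mm9 (MGSCv37) and from Cuffdiff, 1 column per library and 29955 genes by symbol; the annotation is not given in the sources used here. Columns were mapped to groups by their names, and 5 columns of single samples were not used. Libraries are numbered by column, and the labels do not say that each is a separate animal, so p-values measure the spread between libraries.

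Values were taken as log2(FPKM + 0.5), which understates changes of low genes. The 12759 genes whose mean reached 0.5 FPKM entered a limma 3.58.1 model (R 4.3.3) that held 1 mean per group, eBayes with a trend and 16 residual degrees of freedom. A call is a Benjamini-Hochberg adjusted p under 0.05 over all genes tested (two-sided). Ratios were compared by exact permutation. The planned comparison with Control week 5 was not run. The results of 1 gene are left out of this report.

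The named genes are the 9 enzymes, the genes of the lists that the text describes, neighbours of their starts and the genes most like their mean. The members and lists were chosen with earlier results of these data known. Alternatives were other pseudocounts, filters, scalings, samples in the fit and single libraries left out. Python 3.11.15 with pandas 2.3.3 and matplotlib 3.10.9 made tables and plots.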

Additional observations from a re-analysis of the deposited data

Results flagged for a closer look

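Control week 19 library 5 lay far from the other 4 controls in 4 of the 9 enzymes. Cs was at 245.8 FPKM, with the others at 352.8 to 370.2; Dlst was at 140.9 FPKM, with the others at 193.3 to 197.1. Ogdh was at 177.4 FPKM, with the others at 245.5 to 263.6, and Idh3b was at 330.1 FPKM, with the others at 375.6 to 393.8. The gap divided by the range of the group was 0.932 for Dlst, 0.86 for Cs, 0.79 for Ogdh and 0.715 for Idh3b. In all, 18 sets of 5 values were checked, from the 9 enzymes in Control week 19 and Recovery week 19, and chance marks about 1 in 20 such sets. The 4 come from the same library and are not independent of each other. The median correlation of this library with its own group over all genes was 0.977, against 0.988 to 0.989 for the other controls.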

How the results depend on the processing

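The labels hold no pairing between groups, so libraries were compared as unpaired. At HF week 5 against control, 4 to 7 enzymes were called lower with 1 library left out (4 without HF week 5 library 1) and 5 to 8 under the other settings; all 9 kept a negative value. Recovery week 19 against HF week 5 gave 4 to 7 and 5 to 8. HF week 3 against control gave 8 under the other settings, and leaving out 1 of its 2 libraries leaves a single one in the group. For HF week 3 against HF week 5, 2 were lower after rescaling without the 10 highest genes, 0 with only these groups in the fit and 0 to 6 with 1 library left out, when 0 to 1 were higher; the cause was not tested. For Recovery weeks 7 to 13 against HF week 5, 3 to 7 were higher with 1 library left out and 4 to 8 under the other settings (4 under quantile normalization).

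Rescaling moved the median of all genes from 0.04 to -0.07 at HF week 5 against control and from -0.04 to 0.09 for Recovery week 19 against HF week 5; Mdh2 at HF week 5 was then called (adjusted p = 0.0148), as under quantile normalization (0.00834). Idh3g at HF week 5 was called in 7 of 19 settings, among them median centring (adjusted p = 0.0386), rescaling (0.0166) and the fit without the HF week 3 libraries (0.0103). In Recovery week 19 against control, Cs was at 0.00194 under quantile normalization, 0.000103 after rescaling and -0.13 to 0.0213 with 1 library left out. Over the same libraries Idh3a ran from -0.0561 to 0.0156, Idh3b from -0.0854 to 0.0118, Idh3g from -0.0822 to 0.0307 and Mdh2 from -0.155 to 0.00883. Dlst ran from -0.177 to -0.0562, Ogdh from -0.161 to -0.0185, Suclg1 from -0.157 to -0.0161 and Fh1 from -0.0885 to -0.00565. In HF week 3 against control, Suclg1 ran from -0.92 without HF week 3 library 1 to 0.26 without library 2. Against HF week 5, Dlst ran from -0.24 to 0.43 and Suclg1 from -0.52 to 0.65 with 1 library left out, the lower ends without HF week 3 library 1 and the upper without library 2. Mdh2 in Recovery weeks 7 to 13 against control ran from -0.0703 without Recovery week 7 library 2 to 0.00991 without library 1. The fit without the HF week 3 libraries and HF week 5 library 1 was chosen after seeing the data.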
